A study of Mus musculus with 9 samples.

Results

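The genes described here are the secreted protein Reelin and the core of its signalling pathway, together with markers of the outermost cortical layer. They are Reln, which encodes Reelin, the receptor genes Vldlr and Lrp8, the adaptor gene Dab1, and the marker genes Trp73 and Ndnf. These 6 genes were taken by symbol from 33984 annotated genes with a transcript in the count tables, which list 95533 Ensembl transcripts. Each gene is represented by its transcript with the highest mean count over the 9 samples. The choice used only the mean over all samples and no difference between layers.

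The samples were piriform cortex, the primary olfactory cortex, of wild-type C57BL/6 mice, given in the labels as 8 weeks old (the study's methods give another age) and with no treatment or transgene named for any group. Fresh-frozen sections were laser-captured as 3 layers, named only A, B and C in the labels, with 3 replicates of each, and the labels used here do not say which letter is which anatomical layer. RNA was amplified before library preparation, and the reads carry no strand information. Nothing in the labels says that the replicates were separate animals, so p-values measure only the spread between these samples, which may be technical.

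Reelin is a secreted glycoprotein that binds the lipoprotein receptors VLDLR and ApoER2 (the product of Lrp8) on neurons. Both receptors hold Dab1 at a short motif of their cytoplasmic tail, and binding of Reelin leads Src-family kinases to phosphorylate Dab1, which recruits adaptors that act on the cytoskeleton and on adhesion. In the embryo Cajal-Retzius cells of the marginal zone secrete Reelin and neurons depend on it to form layers. In the adult cortex, interneurons and some excitatory neurons make it.

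The receptor motif that gives the pathway its adaptor is encoded in both receptor transcripts measured here. Capitals mark the 4 codons of the NPxY docking motif for Dab1, read from GENCODE M21 transcripts on GRCm38 (mm10). The Vldlr stretch lies at chr19:27247928-27247963 on the plus strand and the Lrp8 stretch at chr4:107869049-107869084 on the plus strand, each within 1 coding exon.
Vldlr: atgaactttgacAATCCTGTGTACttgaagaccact
Lrp8: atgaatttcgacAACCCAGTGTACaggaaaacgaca
Of the 36 bases shown, 27 were identical between the receptors, and of the 12 motif bases 10 were. The longest open reading frame was 873 codons in the Vldlr transcript and 498 codons in the Lrp8 transcript. In another Lrp8 transcript, ENSMUST00000030356, it was 955 codons.

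The libraries held 23104306 to 76471683 reads counted on transcripts. Mitochondrial transcripts took 56.4% to 72.6% of the reads in layer A, 13.1% to 30.1% in B and 21.2% to 59.0% in C. Levels are given as normalized CPM, the counts of a transcript per 1000000 counts of its library after scaling by the TMM method, which takes most transcripts as equal between libraries. Replicate 3 of layer B stood apart from the other layer B libraries. Its log2 CPM correlated with theirs at r = 0.888 and 0.88, while they correlated with each other at 0.978. Its level of Sst, the gene for somatostatin, was 72.9 CPM, against 4.36 and 4.27 CPM in replicates 1 and 2 of layer B and 49.1 to 71.8 CPM in layer C. Values without that library are therefore given below where a result rests on it. The excitatory neuron markers summed to between 1190 and 4300 CPM in the 9 libraries, so neuronal RNA was present in every layer. Most of this sum was Camk2a, at 740 to 4130 CPM, so the sum does not rank the layers by excitatory neuron RNA.

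Across the 3 layers, Reln and Ndnf were highest in layer A, Vldlr was lowest there, and the levels of Lrp8 and Dab1 overlapped in all layers. Of the 6 genes, 5 had enough reads to be tested. Trp73 did not reach 10 counts in 3 samples. By the quasi-likelihood test of edgeR, with p-values adjusted by the Benjamini-Hochberg method over all 56416 tested transcripts, 2 of the 5, Reln and Ndnf, were higher in layer A than in B, where 10.7% of all tested transcripts were called higher in layer A. None of the 5 was called higher in layer B, as 5.83% of all transcripts were. The same 2 genes were higher in layer A than in C, against 6.98% of all transcripts, and none was called higher in layer C, against 4.35%. Between layers B and C edgeR called 0 of the 5 genes and 0.0% of all transcripts. At an unadjusted p under 0.05 that comparison held 1 of the 5 (Reln) and 4.11% of all transcripts, and DESeq2 called 1 of the 5 (Reln). A joint test for differences among all 3 layers called Reln and Ndnf, against 14.3% of all transcripts. The median log2 fold change of the 5 genes was 0.16 for layer A minus layer B, against -0.12 over all tested transcripts, and 0.21 for layer A minus layer C, against -0.01.

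**Figure D1:**
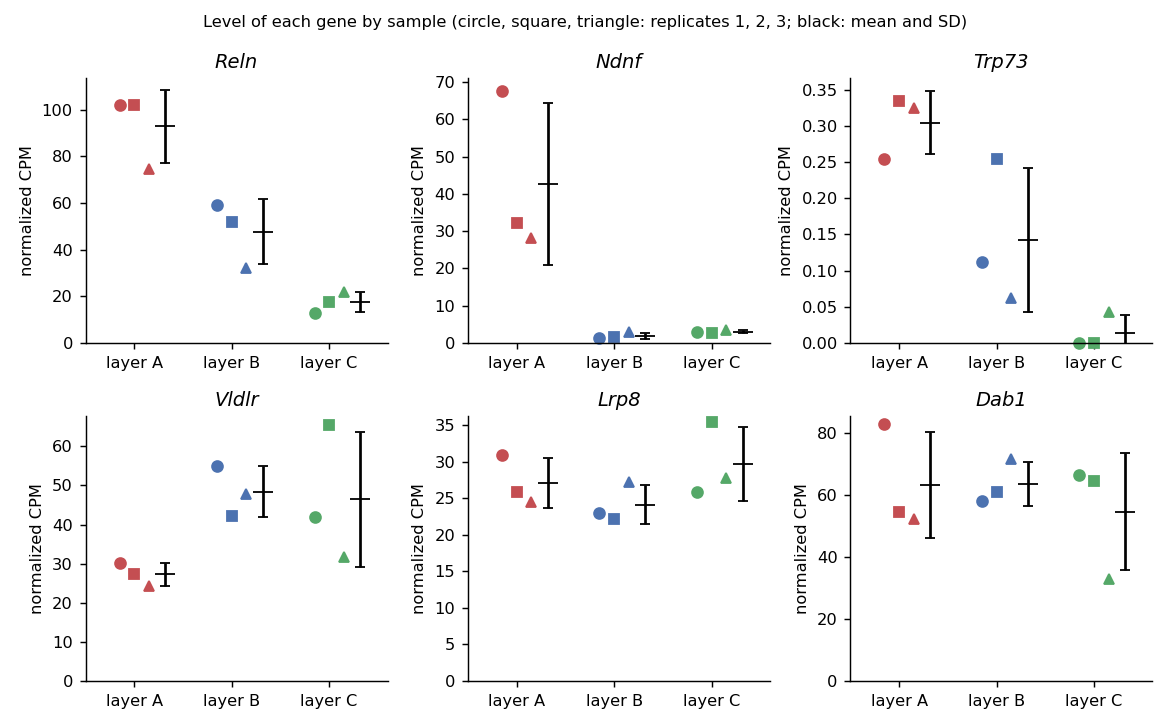
Normalized CPM (y axis, linear and starting at 0, with its own scale in each panel) of the 6 genes in each of the 9 samples. Circles, squares and triangles are replicates 1, 2 and 3, not taken as paired between layers. The black marks are the mean and SD of the 3 samples of a layer (the lower bar of Trp73 in layer C ends at the axis). The layer A samples of Ndnf sit between 28.1 and 67.7 CPM and all other samples at 3.6 CPM or below, while the samples of Dab1 and Lrp8 overlap between layers.

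Reln, the ligand gene, had its highest levels in layer A, middle levels in layer B and its lowest in layer C. Its representative transcript (ENSMUST00000161356 of ENSMUSG00000042453) runs over chr5:21884454-22344702 on the minus strand of GRCm38 in 65 exons, with 11699 exonic bases. The levels were 102, 102 and 74.7 CPM in the layer A samples, 59.2, 51.7 and 32.2 CPM in the layer B samples, and 13.0, 17.6 and 21.8 CPM in the layer C samples. No sample of a layer overlapped with those of another, with all layer A samples the highest and all layer C samples the lowest. The means were 92.9 ± 15.7 CPM in layer A, 47.7 ± 14.0 CPM in B and 17.4 ± 4.41 CPM in C (SD, n = 3 each). The counts behind these levels were 5725 reads in layer A, 6423 in B and 3361 in C.

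Layer A held 5.32-fold more Reln than layer C, a log2 fold change of 2.41 (SE 0.329, 95% interval 1.71 to 3.11), with an edgeR adjusted p of 0.00157. It passed under every alternative processing and without any 1 library. The difference between layers A and B was 1.95-fold, a log2 fold change of 0.96 (SE 0.314, 95% interval 0.29 to 1.63), with an edgeR adjusted p of 0.0484. That call sat at the threshold. Without replicate 3 of layer B the log2 fold change was 0.80 and the edgeR adjusted p 0.0832, and the call held in 2 of the 9 fits that left out 1 library. These were the fits without replicate 3 of layer A and without replicate 3 of layer C. Layer B held 2.73-fold more Reln than layer C (log2 fold change 1.45, SE 0.319, 95% interval 0.77 to 2.13). The unadjusted p was 0.000363 and the edgeR adjusted p 0.541, while DESeq2 gave an adjusted p of 0.0272 for a log2 fold change of 1.43. In these bulk samples fewer cells of a type and less RNA per cell cannot be told apart.

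All 12 Reln transcripts in the tables passed the filter on low counts, and in all 12 the fitted level was higher in layer A than in B, with log2 fold changes of 0.74 to 1.83. These transcripts overlap and may share reads, so they are not independent measurements. The representative transcript was the one called between layers A and B, and the edgeR adjusted p of the other 11 ranged from 0.0828 to 0.57. Between layers A and C the log2 fold changes were 2.10 to 4.17 and 9 of the 12 were called. The 3 that were not called, ENSMUST00000162637, ENSMUST00000162622 and ENSMUST00000159741, had mean counts of 35.8, 18.3 and 8.11. For layer B minus layer C the log2 fold changes were 0.54 to 2.71, all positive, and edgeR called 0.

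**Figure D2:**
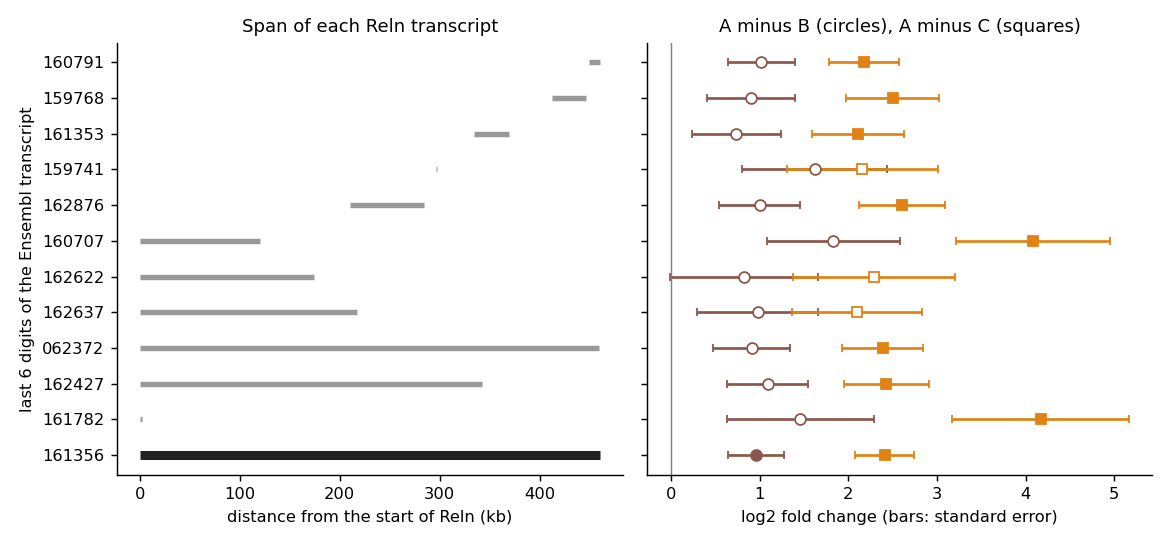
The left panel shows the span of each of the 12 Reln transcripts as distance from the start of the gene in kb, each named by the last digits of its Ensembl identifier and the representative transcript in black. The right panel shows the log2 fold change with its standard error for layer A minus layer B (circles) and layer A minus layer C (squares), filled where the edgeR adjusted p is under 0.05. All 24 points lie to the right of 0, whether the transcript covers the start, the middle or the end of the gene.

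The second most counted Reln transcript, ENSMUST00000062372, had 68.2% of the mean count of the representative. It lacks exon 64 of the representative, a coding exon of 6 bases at chr5:21891562-21891567 on the minus strand, and its 3′ end is 796 bases shorter. Joined transcript sequence around that exon is shown because the exon adds 2 codons to the end of Reelin, whose longest open reading frame is 3461 codons with it and 3459 without. Capitals mark the exon, with 40 bases of the neighbouring exons on each side.
Reln with exon 64: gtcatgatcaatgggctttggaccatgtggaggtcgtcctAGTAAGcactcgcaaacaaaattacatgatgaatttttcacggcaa
Reln without exon 64: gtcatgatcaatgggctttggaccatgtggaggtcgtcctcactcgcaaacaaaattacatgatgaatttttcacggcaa
The count of the shorter transcript was 65.8%, 76.3% and 61.4% of that of the longer in the layer A samples, 80.5%, 83.5% and 33.2% in the layer B samples, and 73.5%, 69.9% and 66.2% in the layer C samples. Replicate 3 of layer B was the lowest, and the other 8 samples lay between 61.4% and 83.5%. The counts do not separate reads that cross the exon from reads in the longer 3′ end, so use of the exon was not measured.

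Ratios of counts far from and near to the 3′ end were compared in 3 of the genes. For a Reln transcript of 5 exons in the middle of the gene against one of its last 3 exons, that sample was at 27.5%. The other samples ranged from 28.6% in replicate 3 of layer C to 56.9% in replicate 2 of layer B. For an Lrp8 transcript of 6 internal exons against the representative Lrp8 transcript, it was at 0.993%, against 2.52% to 9.79% in the other samples. For a Vldlr transcript that ends before the long 3′ end against the representative, it was at 23.6%, above replicate 1 of layer A at 20.3% and replicate 2 of layer C at 22.7%. For an Lrp8 transcript that ends before the long 3′ end against the representative, replicate 3 of layer B was at 35.8%, against 42.4% to 59.8% in the other samples. Replicate 3 of layer B was thus the lowest of the 9 samples in these Reln and Lrp8 ratios, and not in the Vldlr ratio. In the Reln ratio given here it was lowest by little. In that of the shorter to the longer Reln transcript it was at 33.2%, against 61.4% or more in the other samples. The part of such differences in the Reln values was not tested. An antisense gene, Gm10475, overlaps Reln exons by 125 and 121 bases, with a mean count of 27.6. Without strand information its reads cannot be told apart from those of Reln in these bases.

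Ndnf, which encodes a secreted glycoprotein and marks neurogliaform interneurons of neocortical layer I, had the largest fold changes of the 5 tested genes. The transcript (ENSMUST00000054351 of ENSMUSG00000049001) lies at chr6:65671590-65712326 on the plus strand, with 4 exons and 10101 exonic bases. Its levels were 67.7, 32.3 and 28.1 CPM in layer A, 1.42, 1.52 and 2.89 CPM in layer B, and 3.02, 2.55 and 3.60 CPM in layer C. The lowest layer A sample was above every sample of the other layers, and layers B and C overlapped. The means were 42.7 ± 21.8, 1.94 ± 0.824 and 3.06 ± 0.527 CPM (SD, n = 3 each), from 2411, 268 and 586 reads.

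The level of Ndnf in layer A was 21.9-fold the layer B level, a log2 fold change of 4.45 (SE 0.446, 95% interval 3.50 to 5.40, edgeR adjusted p 0.000118). It was 13.8-fold that in layer C, a log2 fold change of 3.79 (SE 0.432, 95% interval 2.87 to 4.71, edgeR adjusted p 0.000928). Both differences passed under every alternative tried and without any 1 library, where the log2 fold changes were 3.96 to 4.91 and 3.29 to 4.03. Between layers B and C the log2 fold change was -0.66 (95% interval -1.51 to 0.19), with an edgeR adjusted p of 1.0.

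Trp73, which encodes the p53-family transcription factor p73 and is a marker of Cajal-Retzius cells, was near the limit of detection. Its transcript (ENSMUST00000105644, at chr4:154056253-154140208 on the minus strand) had 3, 5 and 13 reads in the layer A samples, 5, 11 and 3 in the layer B samples, and 0, 0 and 5 in the layer C samples. A second transcript, ENSMUST00000133533, had the same mean count. The levels were 0.254, 0.334 and 0.324 CPM in layer A, 0.112, 0.254 and 0.0624 CPM in layer B, and 0.0426 CPM in replicate 3 of layer C. The samples with 0 reads allow levels up to 0.0736 CPM in replicate 1 and 0.191 CPM in replicate 2 of layer C, taking 3 counts as the upper limit, which covers counting error only. With no filter on low counts, edgeR gave a log2 fold change of 3.49 for layer A minus layer C (SE 1.15), with an adjusted p of 0.0511 over 79414 transcripts. With counts summed over the 7 Trp73 transcripts, which may count shared reads more than once, it was 3.61 with an edgeR adjusted p of 0.0376. The fold depends on the prior count, since 2 of the 3 layer C samples hold no read. For layer A minus layer B the fit with no filter gave 1.08 (SE 0.985, edgeR adjusted p 0.543). The summed counts, which were highest at 42 in replicate 2 of layer B, gave 0.66 (SE 0.948, edgeR adjusted p 0.674).

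The other markers in the list for Cajal-Retzius cells, adult remnants of which lie in the outermost layer, passed the test in only a few cases. Of its 9 genes 7 were tested, of which 2 (28.6%), Ebf3 and Emx2, were higher in layer A than in B and C, where 10.7% and 6.98% of all transcripts were. The median log2 fold change of the 7 had the other sign, at -0.85 for layer A minus layer B and -0.35 for layer A minus layer C. Ebf2 was at -1.21 and -1.60 (edgeR adjusted p 0.256 and 0.156) and Nhlh2 at -1.66 and 0.04 (edgeR adjusted p 0.288 and 0.987). Ebf3 was at 4.83, 2.67 and 1.92 CPM in layer A and at 0.447 CPM or below elsewhere, with a log2 fold change of 4.47 for layer A minus layer B (edgeR adjusted p 0.00208). Lhx5, a defining transcription factor, had 3 reads in 1 layer A sample and 0 in the other 8 samples. Lhx1 was at 0 in all layer B and layer C samples and at 0.0847, 0.334 and 0.0 CPM in layer A. Calb2, the gene for calretinin, was at 0.0847 to 0.673 CPM in layer A and at 0.337, 0.277 and 2.04 CPM in replicates 1, 2 and 3 of layer B. The summed level of the 9 genes was 20.6 to 30.7 CPM in layer A and 18.1 to 19.1 CPM in C. In replicates 1, 2 and 3 of layer B it was 15.4, 15.4 and 26.2 CPM, so only replicate 3 of layer B overlapped with layer A.

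Several lists of markers of other cell types were higher in layer A as well. Those for layer I interneurons, deep interneurons and oligodendrocytes were mixed. Over all tested transcripts in the fit on all 9 samples, 10.7% were called higher and 5.83% lower in layer A than in B, and 6.98% and 4.35% than in C. In the list for layer I interneurons, 2 of 10 genes (Cxcl14 and Gad2) were higher and 1 (Lamp5) lower in layer A than in B. The 10 genes summed to 256 to 416 CPM in layer A, 98.4 to 286 CPM in B and 184 to 294 CPM in C. Without replicate 3 of layer B, 6 of the 10 were higher and 1 lower in layer A than in B. Against layer C, 1 of the 10 (Cxcl14) was higher in layer A and none lower, and without replicate 3 of layer B 2 were higher (Id2 and Cxcl14) and 3 lower (Npy, Lamp5 and Nos1). Each of the 10 astrocyte markers was higher in layer A than in B and than in C, with median log2 fold changes of 3.13 and 2.44. They summed to 5000 to 10600 CPM in layer A and 727 to 1710 CPM in the other samples. All 9 meningeal markers were also higher in layer A in both comparisons, with medians of 5.18 and 4.31, and summed to 208 to 657 CPM against 5.56 to 40.7 CPM. The 8 endothelial markers summed to 129 to 159 CPM in layer A and 8.81 to 29.1 CPM in the other samples, with all 8 higher than in B and 7 higher than in C. Of 7 markers of pericytes and smooth muscle, 7 were higher in layer A than in B and 6 than in C, with median log2 fold changes of 3.20 and 2.83 and sums of 220 to 364 CPM in layer A against 17.0 to 68.1 CPM. Of 4 markers of oligodendrocyte precursors, 4 were higher than in B and 2 than in C, with sums of 65.3 to 109 CPM against 13.5 to 40.4 CPM. Of 6 microglia markers, 4 were higher in both comparisons, with sums of 82.6 to 101 CPM against 12.5 to 41.2 CPM. Of 6 oligodendrocyte markers, 1 was higher than in B and none passed against C, with median log2 fold changes of 1.19 and -0.25. Without replicate 3 of layer B, 5 were higher than in B. Of 6 deep interneuron markers, 1 was higher than in B and 2 were lower than in C, with medians of -2.21 and -2.49. Without replicate 3 of layer B, 4 were lower and 1 higher than in C. No gene of these lists was at 0 in all 9 samples. The part of these cell types, and of the mitochondrial share, in the Reln and Ndnf values was not tested.

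Vldlr, the gene for the very-low-density lipoprotein receptor, was lower in every layer A sample than in any sample of layers B or C, but the difference missed the threshold. Its transcript (ENSMUST00000167487, chr19:27217357-27254231, plus strand, 19 exons) was at 30.1, 27.3 and 24.3 CPM in layer A, 55.1, 42.1 and 47.9 CPM in layer B, and 42.0, 65.6 and 31.8 CPM in layer C. The means were 27.2 ± 2.89, 48.4 ± 6.51 and 46.5 ± 17.3 CPM (SD, n = 3 each). For layer A minus layer B the log2 fold change was -0.83 (SE 0.307, 95% interval -1.49 to -0.18), with an unadjusted p of 0.0161 and an edgeR adjusted p of 0.0794. With counts summed by gene it was -0.91 and passed, with an edgeR adjusted p of 0.0337. For layer A minus layer C it was -0.77 (95% interval -1.43 to -0.12, edgeR adjusted p 0.128), and for layer B minus layer C 0.06 (95% interval -0.59 to 0.71, edgeR adjusted p 1.0). On leaving out 1 library, the value for layer A minus layer C ranged from -0.96 to -0.44. The weakest, -0.44, was without replicate 2 of layer C (edgeR adjusted p 0.436). Samples that do not overlap were common in comparisons with layer A. Vldlr, Reln and Ndnf, 3 of the 5 tested genes, had them between layers A and B, against 32.3% of all transcripts, and the same 3 between layers A and C, against 31.4%. Between layers B and C 1 gene, Reln, did, against 8.59%.

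Lrp8, the gene for ApoER2, showed no difference past the threshold between layers. Its transcript (ENSMUST00000106731, chr4:107830985-107876840, plus strand, 16 exons) was at 30.9, 25.8 and 24.5 CPM in layer A, 23.0, 22.2 and 27.2 CPM in layer B, and 25.8, 35.5 and 27.8 CPM in layer C. The layers overlapped in each pair, with means of 27.1 ± 3.37, 24.2 ± 2.72 and 29.7 ± 5.12 CPM (SD, n = 3 each). The log2 fold change was 0.16 for layer A minus layer B (95% interval -0.42 to 0.75, edgeR adjusted p 0.749), -0.13 for layer A minus layer C (95% interval -0.72 to 0.46, edgeR adjusted p 0.833), and -0.30 for layer B minus layer C (95% interval -0.88 to 0.29, edgeR adjusted p 1.0). These intervals leave room for a layer A level up to 1.68-fold the layer B level and down to 0.608-fold the layer C level. They also leave room for a layer B level down to 0.543-fold the layer C level.

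The count of Vldlr over that of Lrp8 within a library does not depend on the scaling between libraries. The 2 receptor transcripts were counted about equally in layer A, at ratios of 0.973, 1.06 and 0.99. In layer B Vldlr was counted more often, at ratios of 2.39, 1.90 and 1.76, and in layer C the ratios were 1.63, 1.85 and 1.15. No layer A sample reached a ratio found in the other layers, while layers B and C overlapped. The mean log2 ratio was 0.01 ± 0.0632 in layer A, 1.00 ± 0.23 in B and 0.60 ± 0.358 in C (SD, n = 3 each). The difference in log2 ratio was -0.99 for layer A minus layer B, a 1.99-fold difference, and -0.59 for layer A minus layer C, each with a 2-sided exact permutation p of 0.1. This is the lowest value that 3 against 3 samples can give, and it became 0.15 after Benjamini-Hochberg adjustment over the 3 pairs. For layer B minus layer C the difference was 0.40 (exact permutation p = 0.2, also 0.2 after adjustment).

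**Figure D3:**
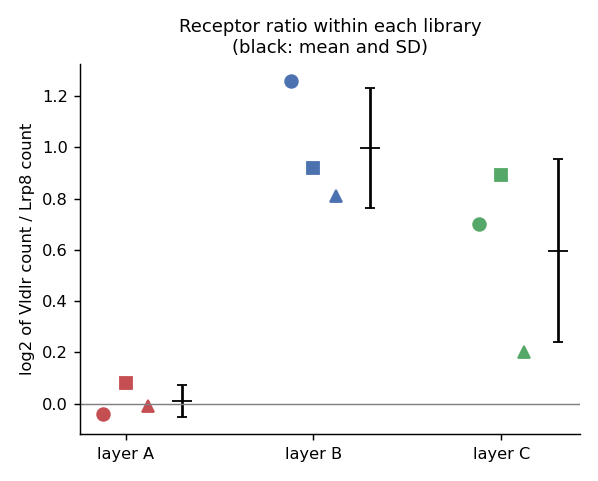
The log2 of the Vldlr count over the Lrp8 count in each library (y axis) by layer, with the mean and SD of 3 samples in black. Layer A samples lie between -0.04 and 0.08, near equal counts, and the samples of layers B and C between 0.20 and 1.26.

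Dab1, the gene for the adaptor that both receptors hold, also had no difference past the threshold. Its transcript (ENSMUST00000106830, chr4:104367590-104744844, plus strand, 15 exons) was at 82.9, 54.5 and 52.3 CPM in layer A, 58.0, 61.1 and 71.7 CPM in layer B, and 66.5, 64.7 and 32.8 CPM in layer C. Replicate 1 of layer A was the highest of the 9 samples and replicate 3 of layer C the lowest, and all layers overlapped. The means were 63.2 ± 17.1, 63.6 ± 7.20 and 54.7 ± 19.0 CPM (SD, n = 3 each). The log2 fold change was -0.01 for layer A minus layer B (95% interval -0.69 to 0.67, edgeR adjusted p 0.99), 0.21 for layer A minus layer C (95% interval -0.47 to 0.89, edgeR adjusted p 0.761), and 0.22 for layer B minus layer C (95% interval -0.46 to 0.90, edgeR adjusted p 1.0).

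**Figure D4:**
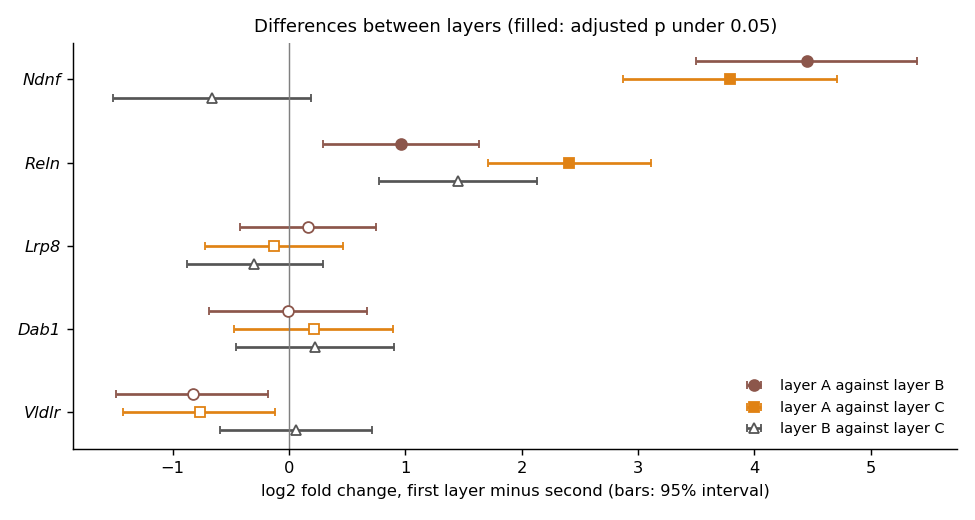
The log2 fold change (x axis, first layer minus second) with its 95% interval for the 5 tested genes in the 3 comparisons, filled where the edgeR adjusted p is under 0.05. Ndnf and Reln have filled points against both other layers, the 2 intervals of Vldlr with layer A end just below 0 at -0.18 and -0.12, and every interval of Lrp8 and Dab1 crosses 0.

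Levels of different genes can be compared only per length of transcript, as CPM per kb of exon. In layer A the order of the means was Dab1 at 12 ± 3.23, Reln at 7.94 ± 1.35, Ndnf at 4.23 ± 2.16, Lrp8 at 4.09 ± 0.509, Vldlr at 3.41 ± 0.362 and Trp73 at 0.0603 ± 0.00865 CPM per kb (SD, n = 3). The ranges of mean ± SD of Ndnf, Lrp8 and Vldlr overlapped. In layer B Dab1 was again first at 12.1 ± 1.36, followed by Vldlr at 6.07 ± 0.817, Reln at 4.08 ± 1.19, Lrp8 at 3.64 ± 0.41, Ndnf at 0.192 ± 0.0816 and Trp73 at 0.0283 ± 0.0197 CPM per kb (SD, n = 3). Reln and Lrp8 did not differ there beyond their spread. In layer C the order was Dab1 at 10.4 ± 3.59, Vldlr at 5.83 ± 2.17, Lrp8 at 4.48 ± 0.772, Reln at 1.49 ± 0.377 and Ndnf at 0.303 ± 0.0522 CPM per kb (SD, n = 3). The range of mean ± SD of Vldlr overlapped those of Dab1 and Lrp8 there. Dab1 thus had the highest mean of the 6 in each layer. In layer C its range overlapped that of Vldlr, though within each layer C library Dab1 was above Vldlr per kb. The mean of Reln lay above those of both receptor genes in layer A and below them in layer C. Uneven coverage along amplified transcripts can change such an order between genes.

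Around these genes, 52 further genes of the pathway were listed by role, and all 52 were tested. Between layers A and B 5 were higher and 5 lower in layer A, and between layers A and C 6 were higher and 4 lower. These shares, 19.2% in both comparisons, stand beside 10.7% and 5.83% of all transcripts called higher and lower in the first comparison and 6.98% and 4.35% in the second. The median log2 fold change of the 52 was -0.10 in both, against -0.12 and -0.01 over all transcripts. Between layers B and C edgeR called 0 of the 52, with 3 at an unadjusted p under 0.05. Without replicate 3 of layer B, 8 were higher and 4 lower in layer A than in B, and 7 higher and 6 lower than in C.

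Enzymes that cut Reelin or act on its processing were listed as 6 genes, of which none passed between layers A and B and 2 passed between layers A and C. Of these 2, 1 was higher and 1 lower in layer A, as 6.98% and 4.35% of all transcripts were. Without replicate 3 of layer B, 2 of the 6 genes, Adamts5 and Plat, were higher in layer A than in B. Adamts3, the main protease that inactivates Reelin in the brain, was at 3.30, 1.00 and 3.32 CPM in layer A and 5.45 to 8.61 CPM in layers B and C. Its log2 fold change was -1.49 for layer A minus layer C (edgeR adjusted p 0.0369) and -1.31 for layer A minus layer B (edgeR adjusted p 0.0501). Plat, which encodes tissue plasminogen activator, was higher in layer A than in C by 1.10 on the log2 scale (edgeR adjusted p 0.0386). Of the other 4 genes none passed in either comparison.

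Among 8 genes for coreceptors and other ligands of the receptors, 3 were higher and 1 lower in layer A, in both comparisons. Over all transcripts, 10.7% were called higher and 5.83% lower in layer A than in B, and 6.98% and 4.35% than in C. Apoe and Clu encode apolipoproteins that astrocytes secrete and that bind VLDLR and ApoER2. Apoe was at 190 ± 69.6 CPM in layer A and 29.7 ± 17.8 CPM in layer B (SD, n = 3 each), a log2 fold change of 2.68 (edgeR adjusted p 0.00318), and Clu differed by 2.13 (edgeR adjusted p 0.00222). Against layer C these differences were 2.18 and 1.98, and they moved with the astrocyte markers given above, whose part in them was not tested. Itgb1, the integrin beta-1 gene, was higher in layer A by 1.83 and 1.52 on the log2 scale against layers B and C (edgeR adjusted p 0.00112 and 0.00676). Efnb2, for the membrane ligand ephrin-B2, was lower, at 13.5 ± 1.66 CPM in layer A, 32.0 ± 2.02 CPM in B and 27.4 ± 1.63 CPM in C (SD, n = 3 each), with log2 fold changes of -1.25 and -1.03 (edgeR adjusted p 0.00551 and 0.0237).

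Of 4 genes for receptor turnover, Mylip, the ubiquitin ligase that marks VLDLR and ApoER2 for degradation, was higher in layer A than in C by 1.58 on the log2 scale (edgeR adjusted p 0.0307). Against layer B its difference was 1.20 (edgeR adjusted p 0.0736). Mylip was at 4.41 ± 0.386 CPM in layer A, 1.91 ± 0.581 CPM in B and 1.43 ± 0.631 CPM in C (SD, n = 3 each). Of 6 genes for the kinases that phosphorylate Dab1 and for its degradation, Yes1, a Src-family kinase gene, was higher in layer A, by 2.01 against layer B and 1.60 against layer C (edgeR adjusted p 0.0095 and 0.0405). Over all transcripts, 10.7% were called higher in layer A than in B and 6.98% than in C. Fyn and Src, the kinase genes best known for this step, differed between layers A and B by -0.05 (edgeR adjusted p 0.947) and 0.73 (edgeR adjusted p 0.204).

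Among 21 adaptors and effectors, 1 was higher and 2 were lower in layer A than in B, and 1 was lower than in C. These are 14.3% and 4.76% of the 21, no more than the shares of all transcripts called higher or lower in those comparisons (10.7% with 5.83%, and 6.98% with 4.35%). Rapgef1, for an exchange factor that acts on Rap1 after Crk binds Dab1, was higher in layer A than in B by 0.94 on the log2 scale (edgeR adjusted p 0.0371). Grin2b, an NMDA receptor subunit gene, was at 12.5, 33.5 and 35.6 CPM in layer A, 63.2 to 135 CPM in B and 87.1 to 103 CPM in C. The log2 fold changes were -2.00 and -1.83 (edgeR adjusted p 0.00319 and 0.0094). Grin2a, for another subunit, was lower in layer A than in B by a log2 fold change of -1.45 (edgeR adjusted p 0.0438).

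The microtubule arm, with 7 genes for proteins such as Lis1, doublecortin and the kinase Cdk5 that act with Dab1 signalling in migrating neurons, had a median log2 fold change of -0.72 for layer A minus layer B and -0.47 for layer A minus layer C. Of the 7 genes, 2 (28.6%) were lower in layer A than in B and 1 (14.3%) was lower than in C. Over all transcripts, 5.83% and 4.35% were called lower in layer A in these comparisons, and 10.7% and 6.98% higher. Cdk5r1, which encodes the Cdk5 activator p35, was at 25.3 ± 9.25 CPM in layer A, 84.7 ± 21.3 CPM in B and 59.5 ± 3.44 CPM in C (SD, n = 3 each), with log2 fold changes of -1.74 and -1.23 (edgeR adjusted p 0.00249 and 0.0244). Dcx, the doublecortin gene, was lower in layer A than in B by a log2 fold change of -0.88 (edgeR adjusted p 0.0405), a call that was lost without replicate 3 of layer B. Its levels were 16.5 ± 0.786 CPM in layer A, 30.3 ± 2.8 CPM in B and 19.2 ± 3.35 CPM in C (SD, n = 3 each). Of 10 excitatory neuron markers, Tbr1, Nrgn and Neurod2 were also lower in layer A than in B, and Camk2a was higher. Without replicate 3 of layer B the Nrgn call was lost. Slc17a7, Tbr1 and Neurod2 were then lower in layer A, and Camk2a and Fezf2 higher.

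**Figure D5:**
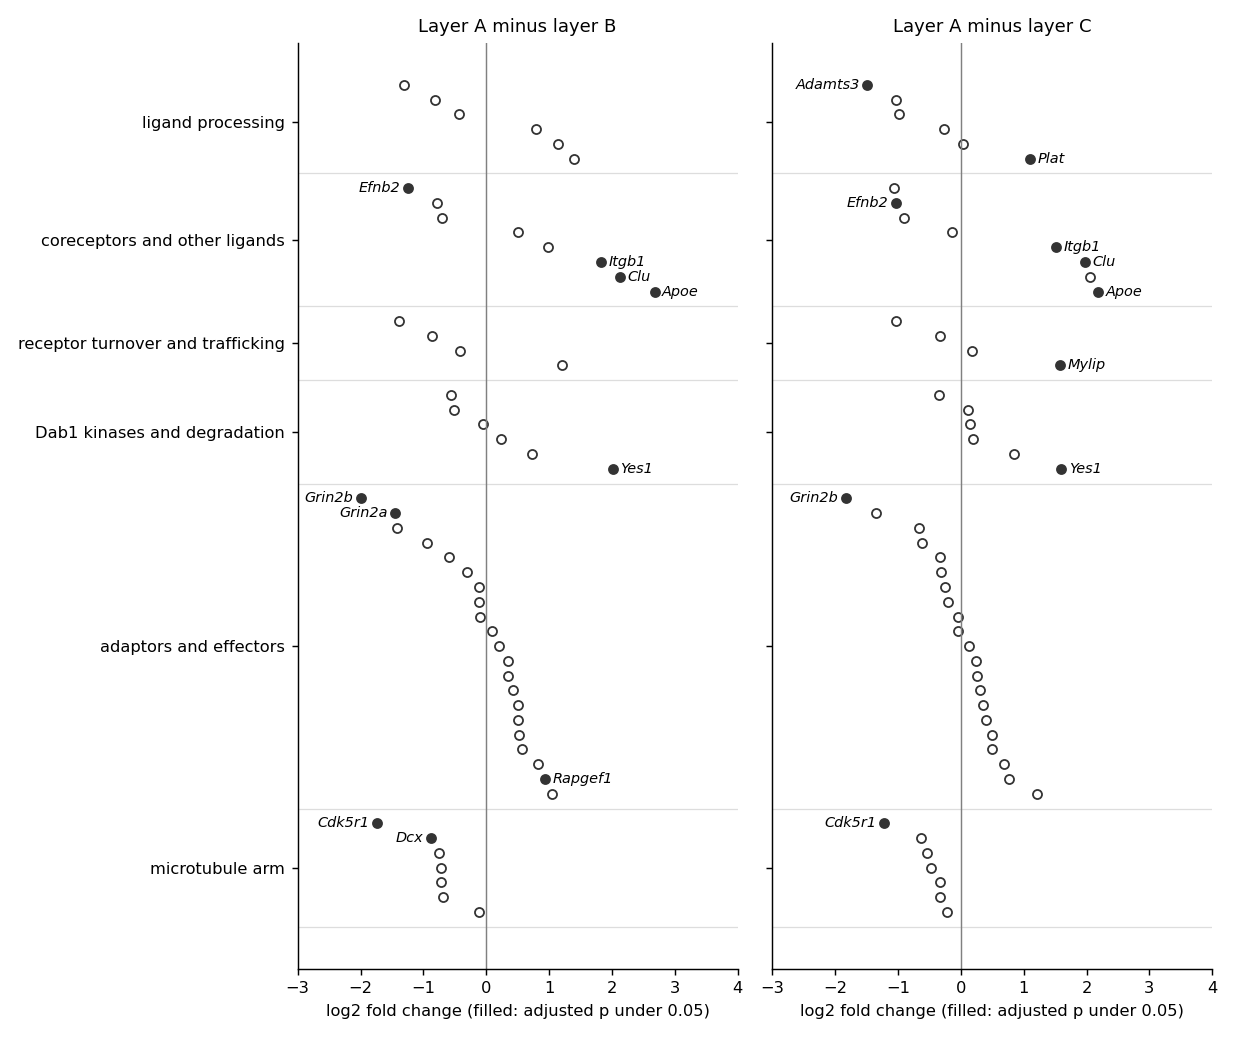
The log2 fold change (x axis) of each of the 52 further pathway genes, grouped by role and ordered within each role, for layer A minus layer B (left) and layer A minus layer C (right). Filled, named points have an edgeR adjusted p under 0.05, which are 10 genes in each panel, with the coreceptor and ligand genes Apoe, Clu and Itgb1 on the right side of 0 and Efnb2, Grin2b and Cdk5r1 on the left.

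For each of the 6 genes, the 3 genes with the most similar profile over the 9 samples were found by Pearson's r of log2 CPM among 9257 other genes with a mean count of at least 100 (9258 for Trp73). These are descriptions over 9 points that share the differences in depth and mitochondrial share between layers. Reln was most like Grik1, a kainate receptor subunit gene (r = 0.966), Map3k2 (0.953) and Ptchd4 (0.95). Grik1 was at 7.64, 4.48 and 2.30 CPM on average in layers A, B and C. Ndnf was like Msn, the gene for the membrane-cytoskeleton linker moesin (r = 0.995), and Dock1 (0.993). Msn averaged 41.4 CPM in layer A, 4.10 CPM in B and 6.88 CPM in C.

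Vldlr was most like the splicing regulator gene Mbnl2 (r = 0.977), the activin receptor gene Acvr2a (0.975) and Fsd1l (0.971), all lowest in layer A on average. Lrp8 was most like the transcription factor gene Nfib (r = 0.94), Yae1d1 (0.931) and Klhl32 (0.926), and Dab1 most like Ankrd6 (0.929), Fam13a (0.914) and Klhdc1 (0.913). The gene most like Trp73 was Reln itself (r = 0.95), ahead of 9830144P21Rik (0.948) and Ikzf2 (0.938), but the Trp73 values rest on 0 to 13 reads in a library. Among the other pairs of the 6 genes, Vldlr and Ndnf were at r = -0.791, Reln and Ndnf at 0.653, Reln and Vldlr at -0.556, and Vldlr and Lrp8 at 0.232. Reln and Dab1 were at 0.171.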

How the data were processed

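Per the labels and the study's methods, the authors laser-captured 3 layers of piriform cortex, amplified the RNA, sequenced strand non-specific paired-end libraries, aligned them with Bowtie to mm10, and deposited raw read counts per Ensembl transcript for each sample. The submitters' processing notes name bcl2fastq 1.8.4, Bowtie and HTSeq 0.5.3. The Ensembl release and the treatment of reads shared by transcripts are not given in the sources used here, so counts of overlapping transcripts may share reads. Amplification can also change the weight of 3′ ends. Of 95533 transcripts, 82807 (86.7%) matched GENCODE M21 on GRCm38. All 9 libraries, 3 per layer, held 23104306 to 76471683 counts, and a level of 3 counts was 0.0256 to 0.254 CPM.

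The 56416 transcripts that reached 10 counts in 3 or more samples entered edgeR 4.0.16 (R 4.3.3), with TMM scaling and the quasi-likelihood test on all 9 samples, with Benjamini-Hochberg adjustment over all of them and a threshold of 0.05. CPM used TMM-scaled library sizes. The receptor ratio added 0.5 counts to both counts and was tested by exact permutation. Profiles were compared on log2 CPM with a prior count of 2. Named were the 6 genes, each tested Reln transcript by its range, the listed pathway genes past the threshold, and the 3 most similar profiles, of which 1 is not reported here. Fyn, Src and the members of the cell type lists were named after their values were seen. Alternatives were DESeq2 1.42.0, other scalings and filters, gene sums, 1 transcript per gene, the replicate number as a block, the 6 samples of a pair, and leaving out each library. Those on the other Reln transcripts, on 3′ weighting and on the lists without replicate 3 of layer B were added after seeing the data. The genes and lists were chosen with earlier results of these data known. On simulated counts for layers A and B with 200 of 56416 transcripts changed by 2 on the log2 scale, 47.5% were recovered, with 6 false calls.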

Additional observations from a re-analysis of the deposited data

How the results depend on the processing

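The number of the 6 genes called between layers A and B fell from 2 to 1 under upper-quartile scaling, with no filter on low counts, with 1 transcript per gene, with only the 6 samples of those layers, and with the replicate number as a block. In each case Reln was lost and Ndnf remained. Leaving out 1 library gave 1 to 2, with 1 in the fits without replicates 1 and 2 of each layer and without replicate 3 of layer B. Gene sums called Vldlr and Ndnf there (2), and added Trp73 between layers A and C (3). DESeq2 called 1 gene between layers B and C. With the representative transcript or gene sums, Reln in layer A minus layer B ranged over the alternatives from 0.80 to 1.19 on the log2 scale, and over the other Reln transcripts from 0.74 to 1.83. The receptor ratio kept its direction in every alternative, with -1.08 to -0.86, -0.79 to -0.44 and 0.20 to 0.55 on leaving out 1 library. No difference of Reln, Vldlr or Ndnf with layer A changed sign; those of Dab1 with layers B and C and of Lrp8 with layer C, none of which passed, did in some fits. The cause of the lost calls was not tested.

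Layers share replicate numbers, which were not taken to pair samples. Deviations of same-numbered samples from their layer means correlated at -0.186 to 0.243, and those of different-numbered samples at -0.369 to 0.394. With deviations from the mean of only 3 samples, these values cannot exclude a pairing. With the replicate block, Reln in layer A minus layer B was 0.97 (edgeR adjusted p 0.0637).

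Counts over all transcripts were 9329, 6389 and 0 in the comparisons of layers A and B, A and C, and B and C. They were 4918, 3637 and 5 for gene sums, 5010, 3752 and 5 for 1 transcript per gene, and 5570 to 11337, 1369 to 9740 and 0 to 17 on leaving out 1 library. Between layers B and C DESeq2 called 130 and no filter 10. Scaling by totals without mitochondrial transcripts moved the median of all transcripts in layer A minus layer C from -0.01 to 0.10, and higher and lower calls from 6039 and 3290 to 6357 and 2360 between layers A and B and from 3937 and 2452 to 4209 and 1789 between layers A and C. Depth limits Trp73, Lhx1 and Lhx5, with at most 13 reads of the representative Trp73 transcript in a library.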
